A study of Mus musculus with 3 samples.

Results

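Cytochrome c oxidase, complex IV of the respiratory chain, has several subunits that mammals make in a muscle or heart form and in a form found in most tissues. The 9 genes described here are Cox6a2, Cox7a1 and Cox8b, which code for muscle forms in the mouse, their partners Cox6a1, Cox7a2, Cox7a2l and Cox8a, and Cox4i1 with its counterpart Cox4i2. They were chosen by name: every non-control probe whose RefSeq accession belongs to 1 of these genes was taken, which gave 12 probes of the 55681 on the array and 9 of 21613 named genes. Cox7a2l had 3 probes, all designed to the same transcript, Cox8a had 2, and each other gene had 1.

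Complex IV passes electrons from cytochrome c to oxygen and pumps protons across the inner mitochondrial membrane. Its catalytic core is encoded by mitochondrial DNA, and the nuclear subunits, among them those of the 4, 6a, 7a and 8 families, surround that core and affect its activity, dimer formation and place in supercomplexes. Oxidative muscles such as the soleus are rich in mitochondria and express the muscle forms of 6a, 7a and 8 beside the forms found elsewhere.

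RNA came from a muscle labelled SOL, taken to be the soleus. The mice were C57BL/6 males at 8 weeks of age that ate regular chow. One group was wild type (WT) and the other carried the LacZ allele of the lysine methyltransferase gene Mettl21c on both copies, genotype Mettl21cLacZ/LacZ (KO). Each of 3 arrays on 1 slide held a WT sample dyed with Cy3 and a KO sample dyed with Cy5, described as biological replicates, and the labels do not say whether a sample was 1 animal or a pool. Because the dyes were not exchanged, an effect of the dye and an effect of the genotype cannot be told apart. RNA of whole muscle was measured, in which fewer cells of a type and less RNA per cell cannot be told apart. The question asked here is whether the balance of muscle and ubiquitous forms differed between KO and WT soleus.

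The targeted gene was checked first. The processed signal of the 1 Mettl21c probe, which is background-subtracted and dye-normalised by the scanner software, was 7527, 3677 and 4486 in WT and 200.4, 32.3 and 45.4 in KO on arrays 1 to 3. KO was lower on every array, and its spot was well above background on array 1 only. After loess normalisation its mean log2 ratio of KO over WT was -2.45 (SD 0.48, n = 3, limma adjusted p = 0.04998). That call was close to the threshold. Without array 3 the limma adjusted p was 0.105, and its range across the alternatives that tested it was 3.0e-06 (offset 16 in place of 50) to 0.840 (channels as separate samples). Mettl21c was the only call among 8440 tested probes, whose ratios correlated between arrays at 0.21 to 0.35 across probes, and the low number of arrays limits every value below. Between 20.4% and 23.6% of the spots on an array were well above background in either channel.

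The muscle origin was checked on a list of skeletal muscle markers, of which 11 of 13 genes were well above background. As no other muscle was measured, the list cannot tell the soleus from another muscle. Myl3, the slow ventricular myosin light chain, and Acta1, skeletal actin, were among its brightest, with processed WT signals of 97011 to 127090 and 50719 to 72287. Ckm, muscle creatine kinase, and Tnni1, slow troponin I, were not well above background on these arrays. All 9 isoform genes except Cox7a2 were well above background in both channels of all arrays, so the muscle forms were detected in both genotypes.

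The starts of the genes differ in base composition, and 4 promoters are shown because they contrast a muscle form with a ubiquitous one. RefSeq (assembly GRCm38.p6) gave the 250 bases before the start for 6 of the 9 genes, leaving Cox4i1, Cox4i2 and Cox6a2 without one. Each is printed 5′ to 3′ on the strand of its gene. Capitals mark matches, on either strand, to the motifs given after them.
Cox7a1: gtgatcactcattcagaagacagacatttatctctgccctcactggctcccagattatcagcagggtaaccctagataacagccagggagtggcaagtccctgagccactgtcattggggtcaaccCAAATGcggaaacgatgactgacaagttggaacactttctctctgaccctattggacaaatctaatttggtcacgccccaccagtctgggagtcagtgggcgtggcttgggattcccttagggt
Cox8b: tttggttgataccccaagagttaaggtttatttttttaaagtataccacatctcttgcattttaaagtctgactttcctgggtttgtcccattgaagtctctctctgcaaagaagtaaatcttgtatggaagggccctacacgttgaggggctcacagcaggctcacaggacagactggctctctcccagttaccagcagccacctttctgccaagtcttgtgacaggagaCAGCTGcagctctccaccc
Cox6a1: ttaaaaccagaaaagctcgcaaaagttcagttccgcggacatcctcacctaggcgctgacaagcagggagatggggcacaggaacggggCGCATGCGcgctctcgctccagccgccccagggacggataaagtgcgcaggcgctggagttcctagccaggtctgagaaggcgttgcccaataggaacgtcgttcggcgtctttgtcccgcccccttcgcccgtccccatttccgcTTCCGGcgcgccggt
Cox8a: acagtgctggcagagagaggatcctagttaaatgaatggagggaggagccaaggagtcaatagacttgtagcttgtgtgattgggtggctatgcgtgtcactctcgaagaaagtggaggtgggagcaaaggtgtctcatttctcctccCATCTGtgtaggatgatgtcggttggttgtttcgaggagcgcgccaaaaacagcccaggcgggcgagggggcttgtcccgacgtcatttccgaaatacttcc
Cox7a1 lies at chr7:30183921-30184170 on the plus strand, Cox8b at chr7:140900447-140900696, Cox6a1 at chr5:115348959-115349208 and Cox8a at chr19:7217617-7217866, the last 3 on the minus strand. The promoter of the muscle form Cox7a1 held 4 CG dinucleotides and that of Cox8b held 1. The ubiquitous forms held more, with 26 in Cox6a1, 14 in Cox7a2, 13 in Cox7a2l and 11 in Cox8a, against a median of 6 over 32851 promoters of the same length. The E-box CANNTG, bound by MyoD-type factors, matched in 5 of the 6 windows, Cox6a1 being without, and in 66.2% of all promoters. The ETS core CCGGAA matched in Cox6a1 and Cox7a2 and in 12% of all promoters. The core GCATGCG of the site of NRF1, an activator of respiratory chain genes, matched in Cox6a1, at 1 place on both strands, and in 3.02% of all promoters. The TATA box TATAAA (12.4% of all promoters), the ERR element AAGGTCA (4.08%) and a MEF2 site (0.508%) matched in 0 of the 6. Matches of different motifs did not overlap one another, and a match is a run of letters, not a shown binding site.

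No isoform was called different between KO and WT. Of the 12 probes 10, from 7 genes, could be tested, and 0 passed a limma adjusted p of 0.05 in either direction, beside 0% of all tested probes called higher and 0.0118% called lower. The smallest adjusted p among them was 0.111. Without adjustment 4 probes had a p under 0.05 with the ratio above 0 (5.52% of all tested probes) and 2 with the ratio below 0 (7.94%). The 4 were the single probes of Cox4i1, Cox6a1 and Cox7a1 and the brighter one of Cox8a, and the other 2 were probes of Cox7a2l. After loess 4 of the 10 had a ratio above 0 on all 3 arrays (17.4% of all tested probes) and 2 a ratio below 0 on all 3 (18.5%). Every one of the 12 probes had processed signals whose range in WT overlapped its range in KO. The share of all tested probes with such an overlap was not counted, and these ranges leave out the pairing on the array. Within arrays, 1 of the 10 had a processed ratio above 0 on all 3 (17.8% of all tested probes). Another 1 had a processed ratio below 0 on all 3 (18.9%).

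**Figure D1:**
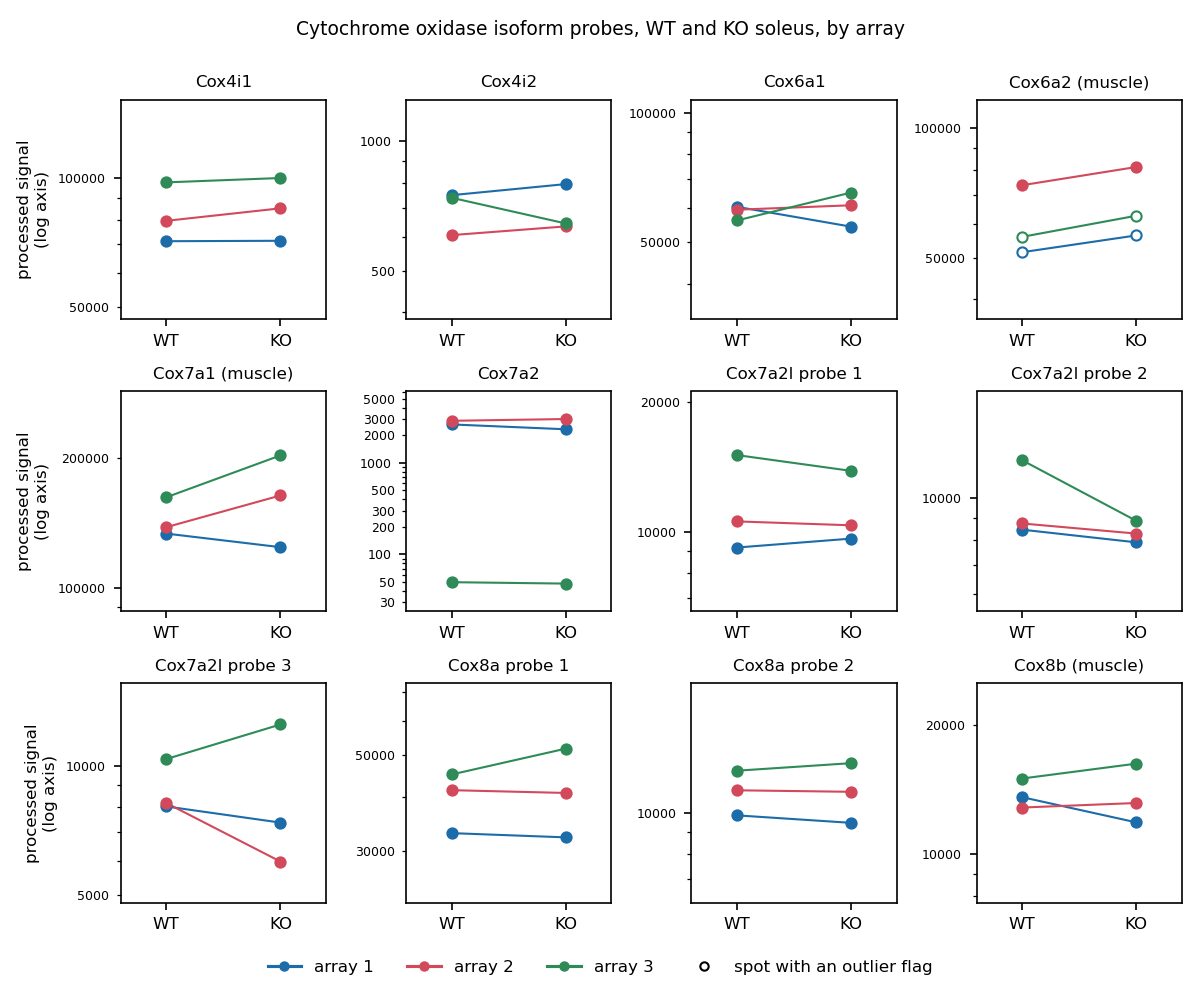
Processed signal (log axis) of each of the 12 isoform probes in WT and KO soleus, with a line joining the samples of 1 array and open circles for spots with an outlier flag. WT and KO ranges overlap in all panels, and the Cox7a2 spot of array 3 reads 49.7 in WT where the other arrays read 2638 and 2891.

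The brightness of a probe moved with its ratio. In the normalisation used for the test, the median log2 ratio of all tested probes was 0.01 at an average log2 intensity of 9 to 10 (516 probes), 0.14 at 10 to 11 (256 probes), 0.24 at 11 to 12 (112 probes), 0.33 at 12 to 13 (32 probes) and 0.74 at 13 to 14 (4 probes). All 4 isoform probes named above with a ratio over 0 lay at 11 or brighter, and there 67.0% (11 to 12) and 71.9% (12 to 13) of all tested probes had a ratio above 0 on every array. In the scanner's processed signals the same medians were -0.02 at 11 to 12, -0.03 at 12 to 13 and 0.16 at 13 to 14. The mean ratio of each tested isoform probe is given below with the median of its brightness class and its value from the processed signals, and the part of brightness in it was not tested.

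**Figure D2:**
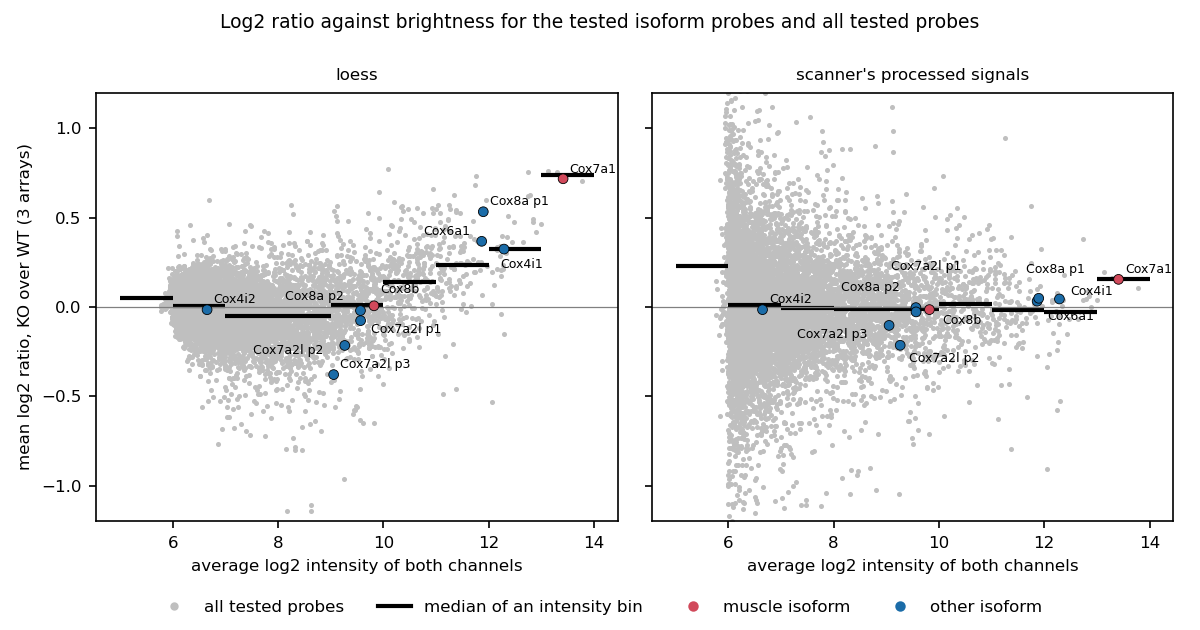
Mean log2 ratio of KO over WT (3 arrays) against the average log2 intensity of both channels for the tested isoform probes (red, muscle forms; blue, other forms) and all tested probes (grey), with black bars for the median in classes of width 1; probes past the axis are not drawn. After loess the medians climb from 0.01 at 9 to 10 to 0.74 at 13 to 14. Cox7a1, at 0.72, lies on the last and is itself among the 4 probes of that class. In the processed signals the classes from 9 to 13 have medians within 0.03 of 0.

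Cox7a1 codes for the muscle form of subunit 7a. Its processed signal was 133466, 138104 and 162084 in WT and 124107, 163669 and 202786 in KO on arrays 1 to 3. KO was below WT on array 1 and above it on arrays 2 and 3, and the groups overlapped. The loess ratios were 0.35, 0.90 and 0.91, with a mean of 0.72 ± 0.32 (SD, n = 3, limma 95% interval 0.42 to 1.01, adjusted p = 0.111). That mean stood beside 0.74 for the 4 probes of its brightness class, of which it is one. From the processed signals the mean log2 ratio was 0.15 ± 0.23 (SD, n = 3), with a 95% interval of -0.22 to 0.53. When arrays were centred without loess, the direction turned, with -0.19 after centring on the tested probes and -0.63 after centring on all probes.

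Cox7a2, the ubiquitous form of subunit 7a, had processed signals of 2638 and 2891 in WT and 2335 and 3022 in KO on arrays 1 and 2. On array 3 the spot was not above background in either channel, at 49.7 in WT and 47.9 in KO. The probe was therefore not tested, and the log2 ratios of the 2 arrays that measured it were -0.16 and 0.05, on either side of 0.

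Cox7a2l, the third 7a family member, codes for the supercomplex factor also called SCAF1 or COX7RP, which links complex III to complex IV. Its probe 1 had processed signals of 9179, 10557 and 15056 in WT and 9628, 10339 and 13837 in KO. KO exceeded WT on array 1 only, and the mean log2 ratio was -0.08 ± 0.09 (SD, n = 3, limma adjusted p = 0.680) beside 0.01 for the brightness class shared by its 3 probes. In the processed signals it was -0.03 ± 0.10 (SD, n = 3). Probe 2 had 8449.9, 8735 and 12252.5 in WT and 7895, 8274 and 8859 in KO. Here KO was below WT on every array, the only isoform probe of which that held in the processed signals, beside 18.9% of all tested probes. Its mean log2 ratio was -0.22 ± 0.10 (SD, n = 3, limma 95% interval -0.38 to -0.05, adjusted p = 0.280), with -0.21 from the processed signals.

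Probe 3 of Cox7a2l had 8038, 8186 and 10357 in WT and 7372, 5985 and 12464 in KO. In these signals KO was lower on arrays 1 and 2 and higher on array 3. After loess, both spot summaries had the other sign on array 3. The median spot signal gave a log2 ratio of -0.62 there, the mean spot signal -0.47 and the processed signal 0.27. The mean loess ratio was -0.38 ± 0.28 (SD, n = 3, limma adjusted p = 0.242), against -0.10 from the processed signals and 0.01 for its brightness class. The 3 probes thus had loess means of one sign and differed in size, and their arrays overlapped.

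Cox6a2 codes for the heart and muscle form of subunit 6a, which takes part in adenine nucleotide regulation of the enzyme. Its processed signal was 51466, 73674 and 55881.5 in WT and 56315, 81219 and 62568 in KO. KO was above WT on every array, with log2 ratios of the processed signals of 0.13, 0.14 and 0.16 and a mean of 0.14 ± 0.02 (SD, n = 3), while samples of different arrays overlapped. The spots of arrays 1 and 3 carried an outlier flag for non-uniform pixels, so the probe was left out of the test. On array 2 the loess ratio was 0.89, beside 0.33 for its brightness class. Without loess the direction on that array turned to -0.08 (tested probes) and -0.66 (all probes). With the flagged spots kept, the mean was 0.62 (SD 0.23, n = 3, limma adjusted p = 0.102).

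Cox6a1, the ubiquitous form of subunit 6a, had processed signals of 60442, 59509 and 56176 in WT and 54351, 60938 and 65232 in KO. KO was below WT on array 1 and above it on the others. The loess ratios were 0.08, 0.34 and 0.68, with a mean of 0.37 ± 0.30 (SD, n = 3, limma adjusted p = 0.279) beside 0.24 for its brightness class. From the processed signals the mean was 0.03 ± 0.18 (SD, n = 3).

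Cox8b codes for the muscle form of subunit 8 and is also used as a marker of brown fat. Its processed signal was 13585, 12852 and 15012 in WT and 11869.9, 13168 and 16258 in KO. The log2 ratios were -0.25, -0.06 and 0.33, so array 3 stood on the other side of 0. The mean was 0.01 ± 0.29 (SD, n = 3, limma 95% interval -0.27 to 0.28, adjusted p = 0.989) beside 0.01 for its brightness class, and -0.15 without array 3. In the processed signals it was -0.01 ± 0.16 (SD, n = 3). Of the 6 brown fat marker genes, 4 were well above background in these samples, and Ucp1 and Elovl3 were not. Among the 4 were Cox8b itself and Cpt1b, the muscle form of carnitine palmitoyltransferase.

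Cox8a, the ubiquitous form of subunit 8, was read by 2 probes that gave different means. The brighter, probe 1, had processed signals of 32949.5, 41468 and 45099.8 in WT and 32211, 40856 and 51789 in KO. Its loess ratios were 0.34, 0.66 and 0.61, with a mean of 0.53 ± 0.17 (SD, n = 3, limma adjusted p = 0.111) beside 0.24 for its brightness class. The processed signals gave 0.05 ± 0.13 (SD, n = 3), with KO above WT on array 3 only. Probe 2 had 9856.5, 11271 and 12518 in WT and 9469, 11181 and 13033 in KO. Its mean loess ratio was -0.02 ± 0.03 (SD, n = 3, limma 95% interval -0.17 to 0.13, adjusted p = 0.923) beside 0.01 for its class, and -0.0037 in the processed signals. The 2 probes of this gene were thus apart after loess and within 0.05 of 0 in the processed signals.

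Cox4i1 codes for the common form of subunit 4, whose matrix side binds ATP. Its processed signal was 71238, 79448 and 97608 in WT and 71401, 84945 and 99917 in KO, with KO above WT on every array, as in 17.8% of all tested probes, and the spread between arrays was wider than the difference within any. The loess ratios were 0.28, 0.35 and 0.34, with a mean of 0.32 ± 0.04 (SD, n = 3, limma adjusted p = 0.133), equal to the 0.33 of its brightness class within that SD. The processed signals gave 0.04 ± 0.05 (SD, n = 3) with a 95% interval of -0.26 to 0.35, and without loess the direction turned to -0.46 (tested probes) and -0.89 (all probes).

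Cox4i2, the form of subunit 4 known from lung and hypoxic cells, was dim but well above background, at 749, 605 and 739 in WT and 795, 634 and 644 in KO. KO was above WT on arrays 1 and 2 and below it on array 3. The mean loess ratio was -0.02 ± 0.07 (SD, n = 3, limma adjusted p = 0.946), beside 0.0043 for its brightness class and -0.02 ± 0.16 (SD, n = 3) in the processed signals.

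**Figure D3:**
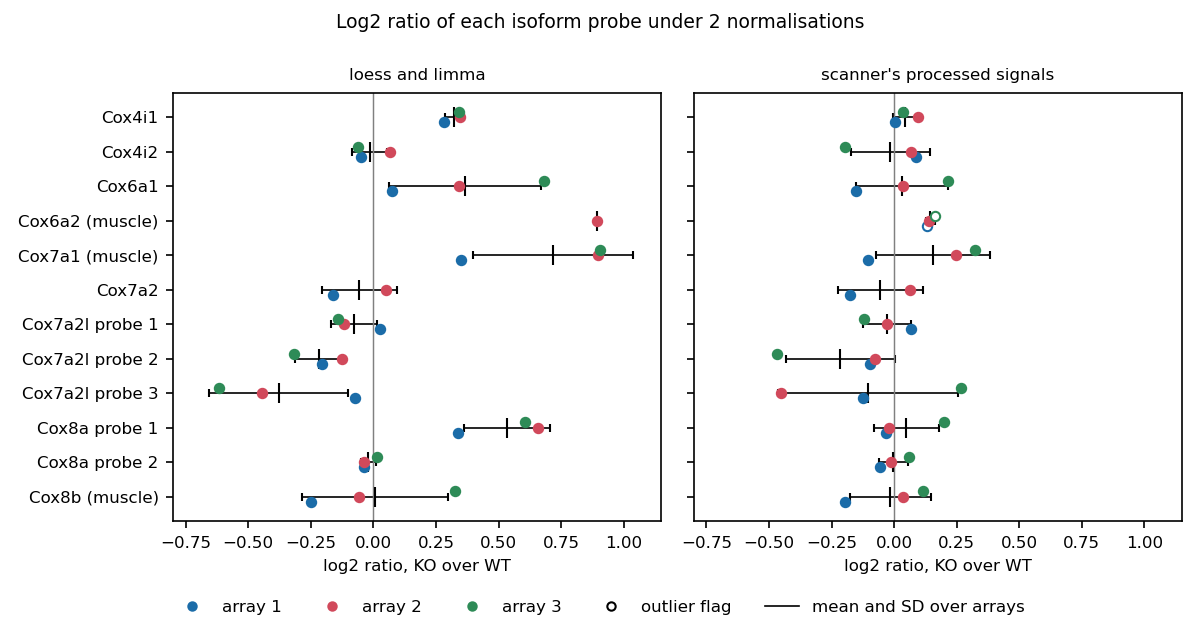
Log2 ratio of KO over WT on each array for the 12 isoform probes after loess (left) and from the processed signals (right), with the mean and SD over arrays as black bars and open circles for spots with an outlier flag. Cox7a1, Cox8a probe 1, Cox6a1 and Cox4i1 have loess means of 0.72, 0.53, 0.37 and 0.32 and processed means of 0.15, 0.05, 0.03 and 0.04; all 4 loess means turn below 0 when arrays are centred without loess.

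The change of each muscle form, and that of Cox4i2, was then set against the change of its partner on the same array. This compares ratios and not the levels of different probes. With 3 arrays an exact two-sided sign-flip test cannot give a p below 0.25, so no pair could pass. The 3 pairs that could be tested were Cox7a1 minus Cox7a2l, Cox8b minus Cox8a and Cox4i2 minus Cox4i1, the last without a muscle form. Each reached that smallest p after loess with the brightest probes (0.25 after Benjamini-Hochberg adjustment over the 3).

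The 7a pair had the largest difference after loess. Cox7a1 minus Cox7a2l probe 1 was 0.32, 1.01 and 1.05 on the log2 scale, above 0 on every array, with a mean of 0.79 ± 0.41 (SD, n = 3). The medians of the 2 brightness classes differ by 0.73, but the class of Cox7a1 has 4 probes, Cox7a1 among them. From the processed signals the difference was -0.17, 0.28 and 0.45, with a mean of 0.18 ± 0.32 (SD, n = 3, exact p = 0.5), and its arrays lay on both sides of 0. Against probes 2 and 3 of Cox7a2l the loess means were 0.93 and 1.10, and the processed means 0.37 and 0.26. Cox7a1 minus Cox7a2 could be read on arrays 1 and 2 only, with 0.51 and 0.85 after loess (brightness classes 0.79) and a processed mean of 0.13 ± 0.08 (SD, n = 2).

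For subunit 6a, Cox6a2 minus Cox6a1 was 0.55 on array 2, the one array without an outlier flag, while the brightness classes differ by 0.09. The processed signals gave 0.28, 0.11 and -0.05, with a mean of 0.11 ± 0.17 (SD, n = 3), so the arrays did not share a sign. This pair was not tested.

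For subunit 8 the result depended on the Cox8a probe. Cox8b minus Cox8a probe 1 was -0.58, -0.71 and -0.28, below 0 on every array, with a mean of -0.53 ± 0.22 (SD, n = 3), while the brightness classes differ by -0.23. Against Cox8a probe 2, which lies in the same class as Cox8b, the difference was -0.21, -0.02 and 0.31, with a mean of 0.03 ± 0.26 (SD, n = 3, exact p = 1). The processed signals gave -0.06 ± 0.11 for probe 1 and -0.01 ± 0.11 for probe 2 (SD, n = 3).

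For subunit 4, Cox4i2 minus Cox4i1 was -0.33, -0.28 and -0.41, with a mean of -0.34 ± 0.06 (SD, n = 3), beside a difference of -0.32 between the brightness classes. The processed signals gave -0.06 ± 0.16 (SD, n = 3, exact p = 0.75). In all pairs the processed means were nearer to 0 than the loess means.

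**Figure D4:**
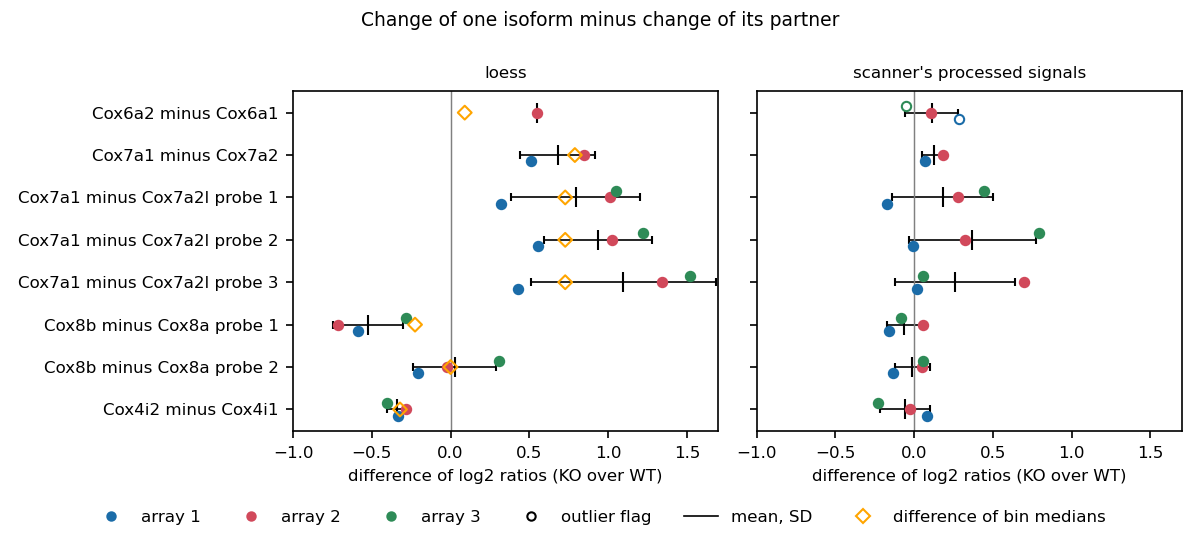
Difference between the log2 ratios of an isoform and its partner on each array, after loess (left) and from the processed signals (right), with mean and SD as black bars, open circles where a spot had an outlier flag and orange diamonds for the difference between the medians of the brightness classes. Cox7a1 minus Cox7a2l probe 1 has a loess mean of 0.79 beside a diamond at 0.73. The class of Cox7a1 behind that diamond has 4 probes, Cox7a1 among them. The processed mean of this pair is 0.18 with arrays on both sides of 0.

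The rest of the electron path near complex IV was read from lists with 1 probe per gene. Of the other complex IV subunits 8 of 10 genes were tested, 6 with a ratio above 0 and 2 below, with a median of 0.04. Of the assembly and copper delivery factors 12 of 25 were tested, 7 above and 5 below, with a median of 0.03. Of complex III and cytochrome c 8 of 11 were tested, 5 above and 3 below, with a median of 0.09. In these lists 0 genes passed the limma test in either direction, beside 0% of all tested probes called higher and 0.0118% called lower. Without adjustment 4 genes had a limma p under 0.05 with the ratio above 0 (Cox5b, Uqcr10, Uqcrh and Uqcrb), beside 5.52% of all tested probes. With the ratio below 0 there was 1 (Uqcrq), beside 7.94% of all tested probes. Over all 5821 tested genes 47.3% of ratios were above 0, with a median of -0.01. The 7 tested isoform genes had 5 above 0 and 2 below after loess (median 0.32), 3 above with loess fitted on the tested probes alone (median -0.01), 4 above in the processed signals (median 0.03) and 1 above with centring on the tested probes (median -0.37). The split of the isoform genes between higher and lower thus differed between normalisations. For complex III and cytochrome c 5 of 8 were above 0 after loess and 0 after that centring. The other complex IV subunits moved less, with 6 of 8 above 0 after loess and 4 after that centring. For the assembly factors these counts were 7 and 6 of 12.

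The members of smallest p were a mixed group. Cox5b, a zinc-binding subunit of complex IV, had a mean log2 ratio of 0.44 ± 0.29 (SD, n = 3, limma adjusted p = 0.203) and 0.21 from the processed signals. Uqcr10, a small subunit of complex III, had 0.37 ± 0.11 (SD, n = 3, limma adjusted p = 0.133) beside 0.33 for its class, and the processed signals put it at -0.15. Uqcrb, the ubiquinone-binding complex III subunit, had 0.32 ± 0.16 (SD, n = 3, limma adjusted p = 0.195) beside -0.05 for its class, and 0.40 from the processed signals. Uqcrh, the hinge protein of complex III, had 0.38 and 0.29 in the same order, and the direction of these 4 genes turned below 0 when arrays were centred without loess. Ndufa4, a complex IV subunit once assigned to complex I, and Cox5a had 0.16 and 0.07 after loess, and 0.44 and -0.07 in the processed signals. Among assembly factors Cox19, Cmc2 and Higd1a had 0.24, 0.16 and 0.11 after loess, with limma adjusted p of 0.383 to 0.568. The processed signals gave 0.11, 0.28 and 0.10. These factors too lay below 0 when arrays were centred on all probes, where the median of all tested probes was -0.44. Centred on the tested probes, Cmc2 stayed above 0, at 0.080.

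Profiles over arrays were compared by the Euclidean distance between the 3 log2 ratios, over 5820 other genes. The nearest to Cox7a1 were Dbi, the acyl-CoA binding protein (distance 0.23), Bnip3, a mitophagy receptor (0.28), and Btn1a1, a butyrophilin (0.35). Their mean log2 ratios were 0.60, 0.70 and 0.59 after loess and 0.32, 0.10 and 0.51 from the processed signals. Nearest to Cox8b were Eif3l, Cyb5a and Spcs1, at distances of 0.04 to 0.05, and their means lay within 0.03 of 0. Such a distance rests on 3 arrays and describes likeness of values only. Cox6a2, without loess values on 2 arrays, was not compared.

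Markers of other cells were read beside the isoforms. All 6 tested macrophage markers of 7 had a ratio below 0 after loess, with a median of -0.24, and -0.39 in the processed signals. With arrays centred on the tested probes 1 was above 0 (median -0.23). Centred on all probes, the macrophage median was -0.67, beside -0.44 for all tested probes. The summed processed signal of the macrophage markers was 7382 to 14614 in WT and 6621 to 9980 in KO. All 3 tested red blood cell markers had a ratio above 0, with a median of 0.21 and 0.69 in the processed signals. Hba-a1 led them at 0.77 ± 0.34 (SD, n = 3, limma adjusted p = 0.111). With arrays centred on the tested probes all 3 were above 0 (median 0.26). Centred on all probes, their median was -0.18, beside -0.44 for all tested probes. Sums of the red cell markers were 11138 to 18358 in WT and 13781 to 32567 in KO. Slc4a1, the red cell anion exchanger, was not well above background. The brown fat list, with Cox8b itself and Cpt1b in it, had sums of 24660 to 37913 in WT and 25182 to 38827 in KO. Sums of the skeletal muscle list were 277041 to 387676 and 312902 to 368856, and 0 markers in these lists were called. Whether the cell makeup had a part in the isoform ratios was not tested.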

How the data were processed

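Each array's deposited file, made by the authors with Feature Extraction, version 12.0.3.1 per the file headers and 11.5 in the submitters' processing notes, gives for both channels the intensity of each spot on a linear scale, its local background, flags and a processed signal. The series' value table, as deposited, holds the log10 ratio of KO over WT, matching the scanner files to within 5e-10 on arrays 1 and 2 and 0.00499 on array 3, with column medians of 0.

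Median spot intensity was corrected with normexp (offset 50) and normalised by loess within each array, control and outlier-flagged spots having weight 0, in limma 3.58.1 (R 4.3.3, files read with data.table, version 1.17.8). Outlier-flagged spots were dropped, 536, 572 and 1002 on arrays 1 to 3; 0 spots were saturated. Replicate spots were averaged. Testing required a value on every array and a signal well above background on every array in 1 channel or both, met by 8440 of 55681 probes. Of 29472 probes with a RefSeq accession 28664 matched a symbol. An array pairs 1 KO with 1 WT sample, as both were hybridised to it, so the ratio carries the pairing. The mean log2 ratio was tested against 0 with eBayes, two-sided, with Benjamini-Hochberg adjustment over all tested probes and a threshold of 0.05. Processed ratios are log2 of KO over WT of the processed signal. The offset of 50 exceeds the median background (32 to 36 in WT, 17 in KO) and shrinks ratios of dim probes.

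After this normalisation the median ratio of all tested probes was above 0 among bright probes, so the values of the isoform probes also stand beside those of their brightness class and of the processed signals. The steps were also tested on simulated data, where some unchanged bright probes were called, so the test does not show the calls on bright probes to be reliable. Loess on the tested probes and the mean spot signal were added after seeing the data; all other alternatives were planned.

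Members and lists were chosen with earlier results of these data known. Named are all isoforms, Mettl21c, in each pathway list the 3 tested genes of smallest p, in each marker list the 2 brightest tested genes, and the 3 genes nearest to Cox7a1 and Cox8b. Values of the marker genes of white fat, smooth muscle and endothelium are in the closing section.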

Additional observations from a re-analysis of the deposited data

How the results depend on the processing

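Of the alternatives, Aquantile scaling between arrays leaves the ratios unchanged and the deposited table repeats the processed signals, so neither is a separate check. With both counted, the finding of 0 called isoform probes held in 17 of 20 alternatives run for it. It did not with arrays centred on all probes without loess (10 called, all lower, where the median of all tested probes was -0.44 and 5488 probes were called), centred on the tested probes without loess (7 called, all lower) or with robust and trended moderation (1 called higher, Cox7a1, adjusted p = 0.047 in limma, against 0.00605, with the direction turned, to 1.00 over its alternatives). The array pairs the samples; with the channels as 6 separate samples and no replicate block, 0 isoform probes were called. Leaving out any 1 array also gave 0 calls. For pairs, the mean difference without background subtraction was 0.23 for Cox7a1 minus Cox7a2 and -0.031 for Cox4i2 minus Cox4i1, with offset 16 it was 0.32 and -0.14, and from the mean signal the last was -0.44. Centred without loess (on either set of probes, alike) the differences were -0.041 (Cox7a1 minus Cox7a2), 0.34 (Cox7a1 minus Cox7a2l), -0.27 (Cox8b minus Cox8a) and 0.50 (Cox4i2 minus Cox4i1). From the processed signals and equally the deposited table they were 0.13, 0.18, -0.063 and -0.060, and 0.11 for Cox6a2 minus Cox6a1 on array 2. With loess on the tested probes they were 0.12, 0.36, -0.29 and 0.014, and the mean over probes gave -0.25 for Cox8b minus Cox8a. Single genes turned sign when centred on all probes: Cox4i1 -0.89, Cox6a1 -0.80, Cox6a2 -0.66, Cox7a1 -0.63, Cox8a probe 1 -0.65, Cox8b -0.92, Cox5a -0.95, Cox5b -0.64, Ndufa4 -0.47, Cox19 -0.73, Cmc2 -0.36, Higd1a -0.81, Uqcr10 -0.87, Uqcrb -0.49 and Uqcrh -0.64. They did so centred on the tested probes: Cox4i1 -0.46, Cox4i2 0.041, Cox6a1 -0.37, Cox6a2 -0.076, Cox7a1 -0.19, Cox8a probe 1 -0.21, Cox8b -0.48, Cox5a -0.51, Cox5b -0.21, Ndufa4 -0.029, Cox19 -0.29, Higd1a -0.38, Uqcr10 -0.43, Uqcrb -0.053 and Uqcrh -0.21. From the processed signals or table Cox8b was -0.015, Cox5a -0.067 and Uqcr10 -0.15. Without background subtraction Cox4i2 was 0.021, Cox7a2 0.012, Cox8b -0.031 and Cox5a -0.027. With loess on the tested probes Cox4i1 was -0.020, Cox7a2 0.012, Cox8b -0.063 and Cox5a -0.081. Cox8b was -0.013 with offset 16, -0.0057 with outlier spots kept and -0.054 with array weights, which put Cox4i2 at 0.0023. Cox8a probe 2 was 0.0052 from the mean signal. Leaving out an array moved Cox4i2 from -0.056 to 0.0080, Cox7a2 from -0.16 to 0.049, Cox8b from -0.15 to 0.13 and Ndufa4 from -0.037 to 0.31. Beyond the constructions named, the cause of these changes was not tested. Plain background subtraction could not be fitted, as loess failed on array 1, and a slide block had no meaning with 1 slide. Signal over background limits Cox7a2, outlier flags limit Cox6a2, and 3 arrays without exchanged dyes limit every pair.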

Other observations

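Genes of white fat, smooth muscle and endothelium were measured in the same soleus samples. Of 6 white fat markers 5 were tested, 4 with a ratio above 0 after loess and 5 in the processed signals. The medians were 0.13 and 0.35. With arrays centred on all probes 0 were above 0 (median -0.22), where the median of all tested probes was -0.44. Centred on the tested probes, 3 were above 0 (median 0.22, and -0.0020 for all tested probes). Fabp4, the adipocyte fatty acid binding protein, had processed signals of 2982, 3249 and 3651 in WT and 3658, 4127 and 5958 in KO. In these signals KO was above WT on every array, as in 17.8% of all tested probes. The mean log2 ratio of Fabp4 was 0.26 ± 0.29 after loess (SD, n = 3, limma adjusted p = 0.397) and 0.45 in the processed signals. Cfd, the adipocyte protease adipsin, had a mean log2 ratio of -0.04 ± 0.27 (SD, n = 3) after loess and 0.28 in the processed signals. Leptin was not well above background. Their part in the isoform ratios was not tested.

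Of 7 smooth muscle and pericyte markers 5 were tested, with a median of 0.00. Tagln, transgelin, had log2 ratios of -0.15, -1.25 and 0.17, and Acta2, smooth muscle actin, 0.11, -0.52 and 0.41, with means of -0.39 and -0.10 in the processed signals. Array 2 was the lowest for both. Of 6 endothelial markers 3 were tested, with a median of 0.03, and Kdr, a VEGF receptor, and Pecam1 had mean log2 ratios of 0.03 and -0.15 after loess, and 0.08 and -0.58 in the processed signals. The brightest macrophage markers, Cd74 and Csf1r, had -0.40 and -0.26 (processed signals -0.54 and -0.21), Cd74 being below 0 on every array (-0.37, -0.61 and -0.22, limma adjusted p = 0.154). Hbb-b1, beta globin, had 0.15 ± 0.33 (SD, n = 3; processed signals 0.31), and Cpt1b, the muscle form of carnitine palmitoyltransferase, 0.30 ± 0.21 (SD, n = 3; processed signals 0.08). In these marker lists 0 genes were called by limma in either direction.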
